A study of Homo sapiens with 4 samples.

Results

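The endoplasmic reticulum (ER) folds and glycosylates the proteins that a cell secretes or places in its membranes, and the genes described here encode 10 of its chaperones, oxidoreductases and stress response factors. They are HSPA5, HSP90B1, CALR, CANX, PDIA3, PDIA4, PDIA6, DNAJB9, XBP1 and HERPUD1. They were picked by gene name, and all 10 were found among the 33845 gene rows of the expression table. RNA-seq was performed on 2 libraries of SW620 cells stably transfected with a Flag-GAP43 plasmid (GAP43 overexpressed cells) and on 2 libraries of SW620 cells stably transfected with a control plasmid, at passages 12 to 15. SW620 is an established cell line of metastatic colorectal cancer, and GAP43, best known from growing axons, is a protein attached to the inner face of the cell membrane. The GAP43 plasmid confers resistance to neomycin, and the sources used here do not say whether the transfected cells were a clone or a pool or whether the libraries came from separate cultures. The p-values below therefore measure the spread between these libraries, which may be technical. The comparison asks how GAP43 overexpression altered the transcriptome of these cells, and here what happened to the folding machinery of the ER.

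When unfolded proteins build up in the ER, HSPA5 is drawn away from 3 sensors in the ER membrane. IRE1 (gene ERN1) then splices XBP1 mRNA into a form that encodes a potent transcription factor, ATF6 is cut in the Golgi to release a transcription factor, and PERK (gene EIF2AK3) phosphorylates the translation initiation factor eIF2 and favours translation of ATF4. This unfolded protein response (UPR) raises chaperones, oxidoreductases and the machinery that exports misfolded proteins for degradation. Secretory epithelia such as that of the gut depend on it. XBP1 splicing and the cleavage of ATF6 change the form of an mRNA or protein and are not seen in a level summed over a gene.

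The ER stress response element (ERSE), which ATF6 binds together with the factor NF-Y, reads CCAAT, then 9 bases of any kind, then CCACG. RefSeq promoter sequences on GRCh38.p14, running from 250 bases before to 50 bases after a start site, were at hand for 9 of the 10 genes and not for PDIA3, in 15 windows since some genes have several starts. An exact match on either strand was found for 6 genes, HSPA5, HSP90B1, CALR, CANX, PDIA6 and XBP1, whereas 0.0916% of the 27305 genes with a promoter sequence held one. The contrast was not tested, and it is no independent finding, as the element is named for the response that raises such chaperones. The matches are shown because they are the feature that most of these genes share beyond their names, with the fixed letters of the element in capitals. HSP90B1 holds a pair of them on opposite strands, and the match of CALR lies on the strand opposite to the gene. Each match is written here 5′ to 3′ on its own strand.
HSPA5 (chr9:125241391-125241409): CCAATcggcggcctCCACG
HSP90B1 (chr12:103930216-103930234): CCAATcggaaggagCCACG
HSP90B1 (chr12:103930321-103930339): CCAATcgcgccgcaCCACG
CALR (chr19:12938384-12938402): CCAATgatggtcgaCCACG
CANX (chr5:179698778-179698796): CCAATcttcacactCCACG
PDIA6 (chr2:10812853-10812871): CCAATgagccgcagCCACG
XBP1 (chr22:28800603-28800621): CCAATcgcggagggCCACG

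The related element ERSE-II, which reads ATTGG, 1 base of any kind and CCACG, was matched exactly in the promoter of HERPUD1 and in 0.0696% of genes. The UPR element TGACGTGG, held by 0.927% of genes, had no match in these windows, and no exact match to any of the 3 elements was found in the windows of PDIA4 and DNAJB9. The letters CCACG alone, the part of the ERSE contacted by ATF6, are common and overlap both ERSE elements, with a match in 42.1% of genes. The whole windows of HSPA5, XBP1 and HERPUD1 follow, on the strand of each gene, since HSPA5 is the classical UPR target and XBP1 and HERPUD1 are the genes that varied most between libraries. Capitals mark the fixed letters of the ERSE in HSPA5 and XBP1 and those of ERSE-II in HERPUD1. A match describes the letters and does not show that a factor is bound.
HSPA5 (chr9:125241294-125241593, minus strand): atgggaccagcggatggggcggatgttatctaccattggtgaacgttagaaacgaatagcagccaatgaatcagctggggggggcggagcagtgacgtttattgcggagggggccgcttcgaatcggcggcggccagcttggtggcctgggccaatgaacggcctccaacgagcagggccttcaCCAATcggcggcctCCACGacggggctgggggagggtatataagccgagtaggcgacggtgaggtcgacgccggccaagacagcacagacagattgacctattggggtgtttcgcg
XBP1 (chr22:28800520-28800819, minus strand): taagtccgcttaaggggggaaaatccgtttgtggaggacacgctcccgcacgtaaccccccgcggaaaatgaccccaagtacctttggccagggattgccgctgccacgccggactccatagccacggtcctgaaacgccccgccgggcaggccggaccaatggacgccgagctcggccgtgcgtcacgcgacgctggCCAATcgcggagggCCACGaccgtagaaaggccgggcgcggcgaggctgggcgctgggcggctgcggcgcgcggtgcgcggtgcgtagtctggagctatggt
HERPUD1 (chr16:56931892-56932191, plus strand): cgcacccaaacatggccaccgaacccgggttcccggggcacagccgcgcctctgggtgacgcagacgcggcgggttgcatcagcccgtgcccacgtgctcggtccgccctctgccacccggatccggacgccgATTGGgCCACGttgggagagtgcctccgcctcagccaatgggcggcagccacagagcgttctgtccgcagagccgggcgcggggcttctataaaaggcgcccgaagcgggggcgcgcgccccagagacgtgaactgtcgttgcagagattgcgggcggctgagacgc

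The deposited values are FPKM, fragments per kilobase of the gene model scaled by library depth, and fragments recovered from them summed to 17473071 to 21883137 per library. GAP43 had 16.3 and 9.89 FPKM in the GAP43 libraries and 4.40 and 4.14 FPKM in the control libraries. Its log2 fold change was 1.38 (SE 0.24, limma unadjusted p = 0.00117, adjusted p = 0.692). Markers of colorectal epithelium were present, with EPCAM at 104 to 131 FPKM and KRT8 at 754 to 1113 FPKM, while KRT20, LGALS4, CDX1 and GPA33 stayed under 1 FPKM in every library. Of the markers of other cell types, 1 of 6 fibroblast genes found (LUM), 1 of 7 leukocyte genes (LYZ) and 0 of 5 endothelial genes reached a mean of 1 FPKM, and COL3A1 and KDR were listed at 0. The summed fibroblast markers were 7.38 and 7.30 FPKM in the GAP43 libraries and 6.19 and 9.59 FPKM in the control libraries, and those of leukocytes and endothelium did not exceed 5.28 and 0.817 FPKM in any library. Mitochondrially encoded genes accounted for 4.93% and 6.78% of the GAP43 fragments and 4.25% and 3.68% of the control fragments. Over all genes GAP43 replicate 2 stood apart, with a median absolute difference in log2(FPKM + 1) of 0.28 to 0.35 in the 3 pairs that include it, against 0.15 to 0.18 in the other 3 pairs, and it was lowest for 5916 of the 13507 genes tested. Control replicate 2 stood apart in its stress response genes, as described below. Results on the 10 genes are therefore given without control replicate 2, and those on other ER genes also without GAP43 replicate 2 where it moves them by over 1.5 times.

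Of the 10 genes, 6 were among the most abundant mRNAs of SW620 cells. Per length, CALR ranked first in every library, with 263 and 296 FPKM in the GAP43 libraries and 313 and 333 FPKM in the control libraries. Calreticulin is the soluble lectin of the ER that holds newly made glycoproteins and binds calcium. Its mean of 301 FPKM over the 4 libraries lay above 99.4% of the 13507 genes tested below, those averaging 1 FPKM or more. HSPA5, HSP90B1, CANX, PDIA4 and PDIA3 followed with means of 220, 186, 148, 136 and 98.5 FPKM, all above at least 97.4% of tested genes. XBP1 (37.4 FPKM), PDIA6 (21.8 FPKM), HERPUD1 (12.98 FPKM) and DNAJB9 (2.56 FPKM) were lower. The 4-library ranges overlapped between HSPA5 and HSP90B1, between HSP90B1 and CANX and between CANX and PDIA4, and between no other neighbours in this order. Only DNAJB9 rested on few fragments, 169 and 136 in GAP43 overexpressed cells and 131 and 158 in control cells, whereas there were at least 947 in any library for the other 9 genes. The 10 genes held 0.376% and 0.438% of summed FPKM in GAP43 overexpressed cells and 0.385% and 0.420% in control cells.

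**Figure D1:**
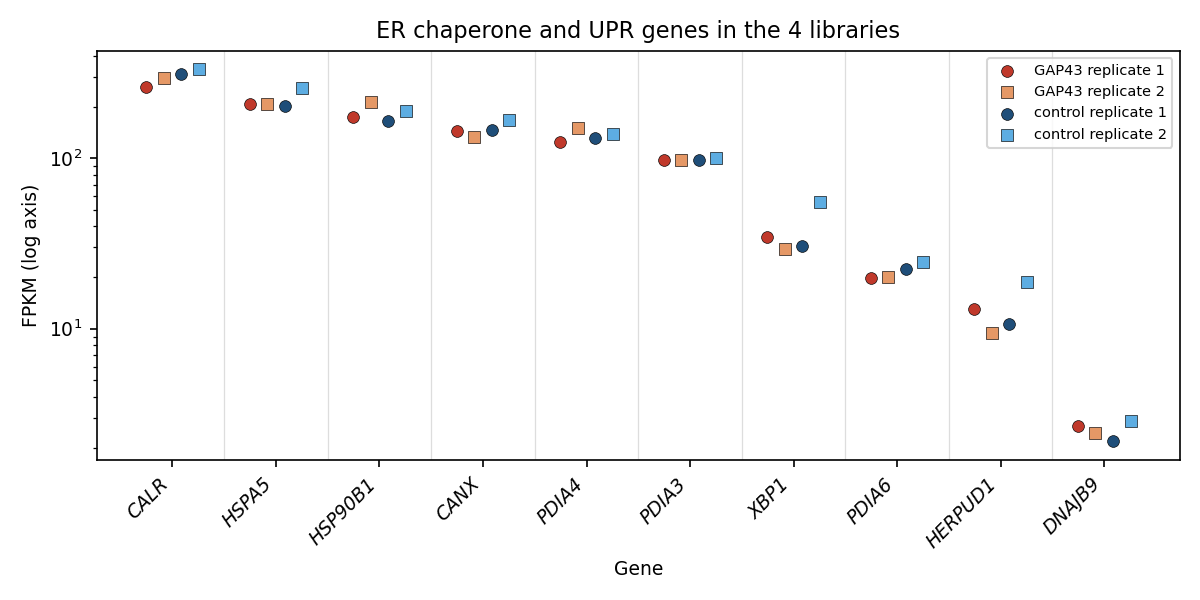
FPKM of the 10 genes on a log axis, ordered by mean, with 1 point for each library (GAP43 replicates 1 and 2, then control replicates 1 and 2). CALR is highest at 263 to 333 FPKM and DNAJB9 lowest at 2.19 to 2.88 FPKM. On these deposited values control replicate 2, the library with the largest FPKM sum, is highest for 8 of the 10 genes.

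None of the 10 genes passed the test between GAP43 overexpressed and control cells. By limma on log2(FPKM + 1), with Benjamini-Hochberg adjustment over 13507 genes, 0 of the 10 passed an adjusted p under 0.05 and 0 passed an unadjusted p under 0.05, and voom on the recovered fragments likewise gave 0 at either threshold. Across all tested genes the share called was 0% at an adjusted p, and at an unadjusted p 3.05% were higher and 2.84% lower (412 and 383 genes, or 577 and 213 after division by each library's FPKM sum). The median log2 fold change of the 10 genes was -0.16, against -0.04 over all genes tested. Of the 10 genes 7 were below 0, against 55.5% of all genes and 6662 of 10692 protein-coding genes. Without control replicate 2 the median was 0.035 and 3 genes were below 0. Dividing FPKM by its sum moved the median of all genes to 0.07, and the median of the 10 genes minus that of all genes was -0.13 with the deposited values and -0.11 with that scaling. This gap was not stable, at -0.09 among protein-coding genes, -0.05 with a filter at 5 FPKM (9 of the 10 genes) and 0.06 without control replicate 2. With 2 against 2 libraries an exact permutation test cannot go below p = 0.3333. In bulk RNA a lower level in each cell and fewer expressing cells cannot be told apart.

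HSPA5 (ENSG00000044574, chromosome 9 from 125234853 to 125241330 on GRCh38), the HSP70 chaperone of the ER that also holds the UPR sensors inactive, had 208 and 207 FPKM in the GAP43 libraries and 204 and 260 FPKM in the control libraries. Both GAP43 libraries lay close to control replicate 1, and the groups overlapped. Its log2 fold change was -0.15 (SE 0.25, limma adjusted p = 0.857), an interval from 0.596-fold to 1.37-fold. It was 0.027 without control replicate 2. HSP90B1 (ENSG00000166598, chromosome 12 from 103930107 to 103953645), the HSP90 of the ER, had 175 and 214 FPKM in the GAP43 libraries and 167 and 190 FPKM in the control libraries. GAP43 replicate 2 was highest, and the groups overlapped, with a log2 fold change of 0.12 (SE 0.24, limma adjusted p = 0.876). It was -0.022 without GAP43 replicate 2 and 0.22 without control replicate 2. The ratio of HSP90B1 to HSPA5, which does not depend on the scaling of a library, was 0.841 and 1.03 in GAP43 overexpressed cells and 0.817 and 0.732 in control cells. GAP43 replicate 2 was the only library of the 4 in which HSP90B1 exceeded HSPA5.

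The lectin chaperones CALR and CANX, and PDIA6, had both GAP43 libraries below both controls, and none of the 10 had both above. These patterns were seen in 24.1% and 17.1% of all genes tested, and in 3007 and 1487 of 10692 protein-coding genes. After division by the FPKM sum, 1 of the 10 genes had both GAP43 libraries below both controls and 1 had both above. With that scaling 2166 of all 13507 genes tested had both below and 3419 had both above. CALR (ENSG00000179218, chromosome 19 from 12938578 to 12944489), with the values given above, averaged 280 ± 22.9 FPKM in GAP43 overexpressed cells and 323 ± 13.8 FPKM in control cells (SD, n = 2 each). Its log2 fold change was -0.21 (SE 0.24, limma adjusted p = 0.793), with -0.17 without control replicate 2 and -0.13 without GAP43 replicate 1. CANX (ENSG00000127022, chromosome 5 from 179678628 to 179730925), the membrane-bound lectin of the same cycle, had 144 and 133 FPKM in the GAP43 libraries and 146 and 168 FPKM in the control libraries. GAP43 replicate 1 and control replicate 1 were nearly equal, and the log2 fold change of -0.18 (SE 0.22, limma adjusted p = 0.806) became -0.08 without control replicate 2.

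The protein disulfide isomerases form and rearrange disulfide bonds in folding proteins. PDIA3 (ENSG00000167004, chromosome 15 from 43746392 to 43773279), which works with calnexin and calreticulin on glycoproteins, had 98.3 and 97.4 FPKM in the GAP43 libraries and 97.8 and 101 FPKM in the control libraries. On the deposited values its lowest and highest library were 0.05 apart on the log2 scale. Only 0.104% of tested genes had a smaller range, and the median range was 0.48. Its log2 fold change was -0.02 (SE 0.20, limma adjusted p = 0.982), an interval from 0.703-fold to 1.39-fold. It was 0.00094 without control replicate 2. After division by the FPKM sum of each library the log2 fold change was 0.10, so the range was wider than 0.05 on that scale. It was not compared with that of other genes there. PDIA4 (ENSG00000155660, chromosome 7 from 149003062 to 149028641), an isomerase found in complexes with HSPA5 and HSP90B1, had 124 and 150 FPKM in the GAP43 libraries and 132 and 139 FPKM in the control libraries. The GAP43 libraries were the lowest and the highest of the 4, with a log2 fold change of 0.01 (SE 0.23, limma adjusted p = 0.994), and 0.044 without control replicate 2. PDIA6 (ENSG00000143870, chromosome 2 from 10783391 to 10837977), another isomerase known to bind HSPA5, had 19.8 and 20.2 FPKM in the GAP43 libraries and 22.4 and 24.7 FPKM in the control libraries. Its log2 fold change was -0.23 (SE 0.17, limma adjusted p = 0.717), with an interval from 0.640-fold to 1.14-fold, and it was -0.16 without control replicate 2.

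XBP1 and HERPUD1 varied most among the 10 genes, with control replicate 2 highest for both. XBP1 (ENSG00000100219, chromosome 22 from 28794555 to 28800597), the transcription factor activated by IRE1, had 34.4 and 29.4 FPKM in the GAP43 libraries and 30.5 and 55.2 FPKM in the control libraries. Control replicate 2 was far above the other 3 libraries, which lay close together. The log2 fold change was -0.36 (SE 0.30, limma adjusted p = 0.730) with an interval from 0.469-fold to 1.29-fold, and it turned to 0.057 without control replicate 2. HERPUD1 (ENSG00000051108, chromosome 16 from 56932048 to 56944863), an ER membrane protein that helps to assemble the degradation complex, had 12.995 and 9.41 FPKM in the GAP43 libraries and 10.7 and 18.8 FPKM in the control libraries. Control replicate 1 lay between the GAP43 libraries and control replicate 2 above them. Its log2 fold change of -0.34 (SE 0.29, limma adjusted p = 0.735) turned to 0.044 without control replicate 2 and was -0.12 without GAP43 replicate 2. DNAJB9 (ENSG00000128590, chromosome 7 from 108569568 to 108574850), a co-chaperone of HSPA5, had 2.70 and 2.46 FPKM in the GAP43 libraries and 2.19 and 2.88 FPKM in the control libraries. The control libraries were its lowest and its highest, and the log2 fold change was 0.02 (SE 0.19, limma adjusted p = 0.975), with an interval from 0.735-fold to 1.41-fold. It was 0.17 without control replicate 2.

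**Figure D2:**
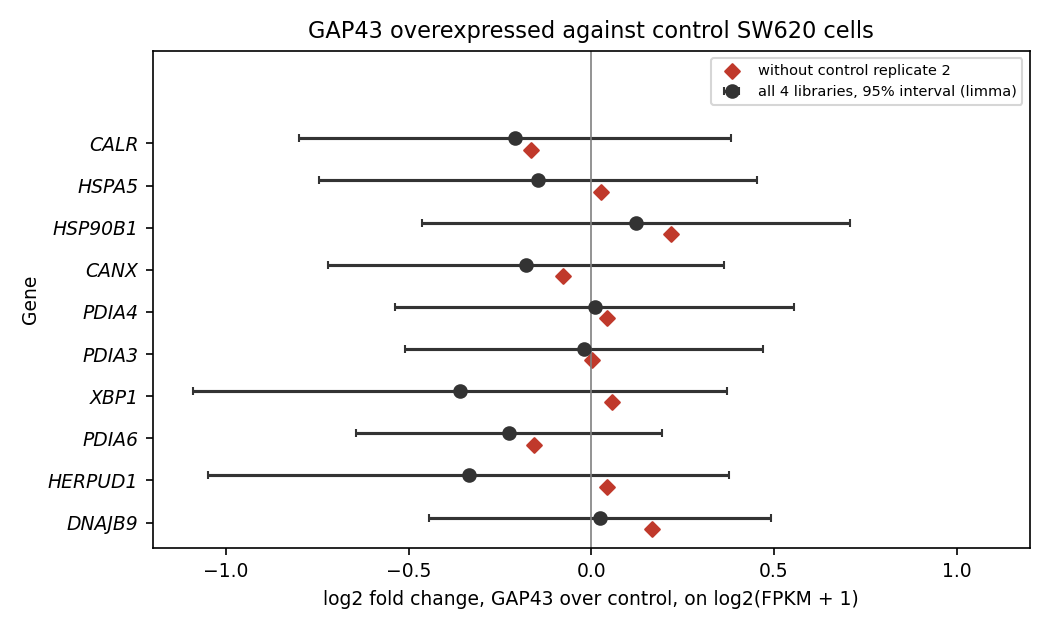
Log2 fold change of GAP43 over control on log2(FPKM + 1) for each gene, ordered by mean level, as black circles with 95% intervals from limma, and the value without control replicate 2 as red diamonds. Every interval spans 0, and the values of XBP1 (-0.36) and HERPUD1 (-0.34) move to 0.057 and 0.044 without that library.

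All 4 libraries were also compared pairwise, as differences in log2(FPKM + 1), without a test since a pair of single libraries has no replicate error. Against control replicate 1, GAP43 replicate 1 differed by a median of 0.02 over the 10 genes (6 higher and 4 lower) and GAP43 replicate 2 by -0.03 (4 higher and 6 lower), beside 0.00 and -0.06 over all genes tested. Against control replicate 2, the medians were -0.27 for GAP43 replicate 1, with 10 of 10 genes lower, and -0.22 for GAP43 replicate 2, with 8 of 10 lower. Over all genes the medians were -0.03 and -0.09, and 45.1% and 43.0% of genes were higher than in control replicate 2. The GAP43 libraries differed from each other by a median of -0.01 (replicate 2 minus replicate 1), with HERPUD1 the lowest at -0.43 and HSP90B1 the highest at 0.29. Control replicate 2 exceeded control replicate 1 for 10 of 10 genes, with a median of 0.20. Over all genes 54.3% were higher and the median was 0.02. The smallest of these differences were 0.04 for PDIA3 and 0.07 for PDIA4. These are deposited values, and summed FPKM was 307463 in control replicate 2 and 292286 in control replicate 1. Division by that sum lowers each of these differences, and it reverses the direction of PDIA3 and PDIA4. Both genes rose by a smaller factor than the sum did, whereas the remaining genes rose by a larger one. Counts for the other pairs were not repeated on that scale. The median absolute difference of the 10 genes was 0.13 for GAP43 replicate 1 and 0.12 for GAP43 replicate 2, each against control replicate 1, and 0.20 between the controls, beside 0.15, 0.29 and 0.16 over all genes.

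**Figure D3:**
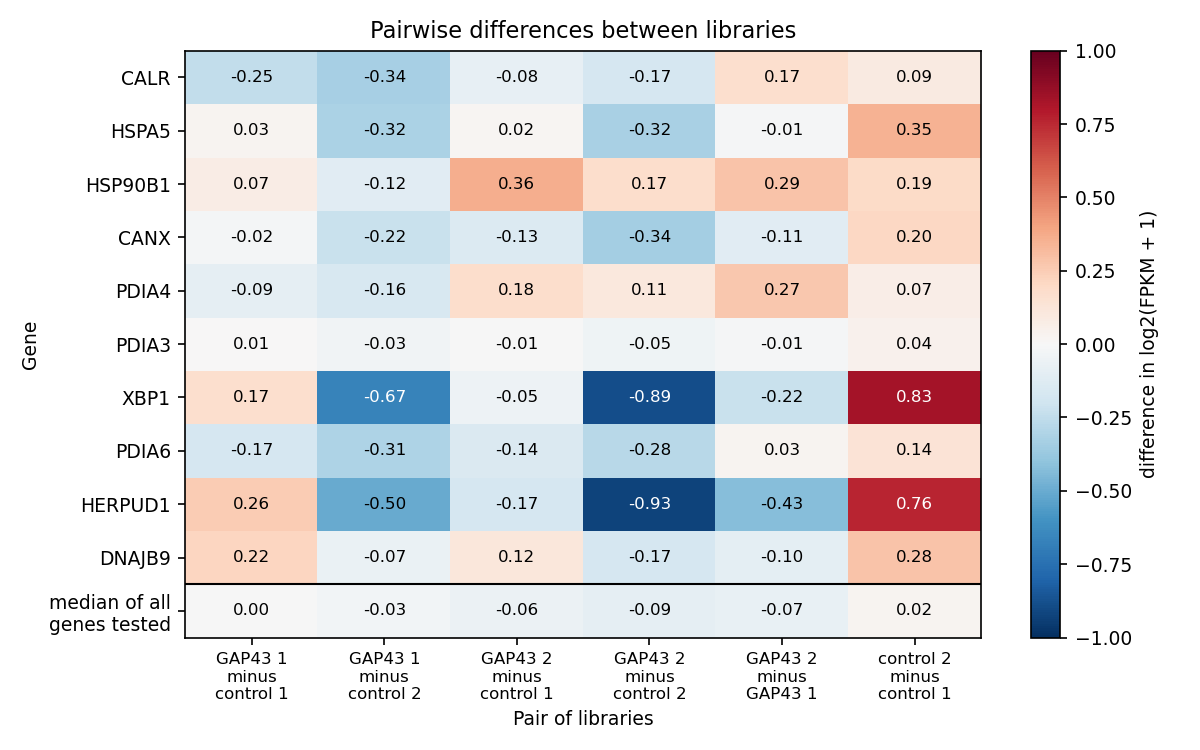
Differences in log2(FPKM + 1) for each of the 6 pairs of libraries (columns, first library minus second) and each of the 10 genes (rows), with the median over all genes tested in the last row. The pairs with control replicate 2 hold the largest differences, with XBP1 at 0.83 and HERPUD1 at 0.76 between the control libraries.

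The largest differences between the controls were those of XBP1 and HERPUD1. XBP1 was 1.81 times as high in control replicate 2 as in control replicate 1 (95% interval 1.71 to 1.91 from fragment counts, which covers counting error only), and 1.69% of tested genes had an equal or larger difference in this direction. HERPUD1 was 1.76 times as high (1.63 to 1.89), with 2.08% of genes at least as far apart, and HSPA5 1.27 times (1.25 to 1.30), with 9.94%. Among the other genes, PDIA3 was the closest at 1.03 times (0.998 to 1.06). The ratio of XBP1 to HSPA5 within a library was 0.165 and 0.142 in GAP43 overexpressed cells and 0.150 and 0.213 in control cells, so XBP1 was high in control replicate 2 relative to HSPA5 as well. The exact ERSE is in the promoter windows of both XBP1 and HSPA5. It is also in those of CANX, HSP90B1, PDIA6 and CALR, which differed by 0.20, 0.19, 0.14 and 0.09 on the log2 scale between the controls. HERPUD1 holds ERSE-II and a match to the ERSE with 1 mismatch, which 1.81% of genes hold.

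Genes listed for PERK signaling and the integrated stress response were also high in control replicate 2. Of 15 tested genes of this list, 14 were highest in control replicate 2, as were 8 of the 10 ER genes. So were 32.6% of all genes tested and 36.9% of the protein-coding genes tested. These counts are on the deposited values, whose sum was largest in control replicate 2. The median difference of the 15 genes between control replicate 2 and control replicate 1 was 1.17 on the log2 scale. ATF4, the transcription factor at the center of this response, had 156 and 119 FPKM in the GAP43 libraries and 179 and 296 FPKM in the control libraries. The targets named next were picked after their values had been seen. TRIB3, an inhibitory pseudokinase induced by ATF4, had 26.0 and 13.1 FPKM in the GAP43 libraries and 25.4 and 91.2 FPKM in the control libraries. DDIT3, the factor CHOP, had 18.0 and 14.0 FPKM in the GAP43 libraries and 10.96 and 33.9 FPKM in the control libraries. For ASNS, the asparagine synthetase, the values were 12.6 and 8.72 FPKM in the GAP43 libraries and 12.0 and 44.2 FPKM in the control libraries. In each of these 4 genes control replicate 2 was above the other 3 libraries. DDIT4, an inhibitor of mTORC1 induced by stress, had 58.1 and 30.5 FPKM in the GAP43 libraries and 20.4 and 113 FPKM in the control libraries, so that both groups spread widely and overlapped. Its log2 fold change was -0.19, and 1.01 without control replicate 2, a fit that leaves 1 control library. Whether the stress response genes have a part in the XBP1 and HERPUD1 values was not tested.

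**Figure D4:**
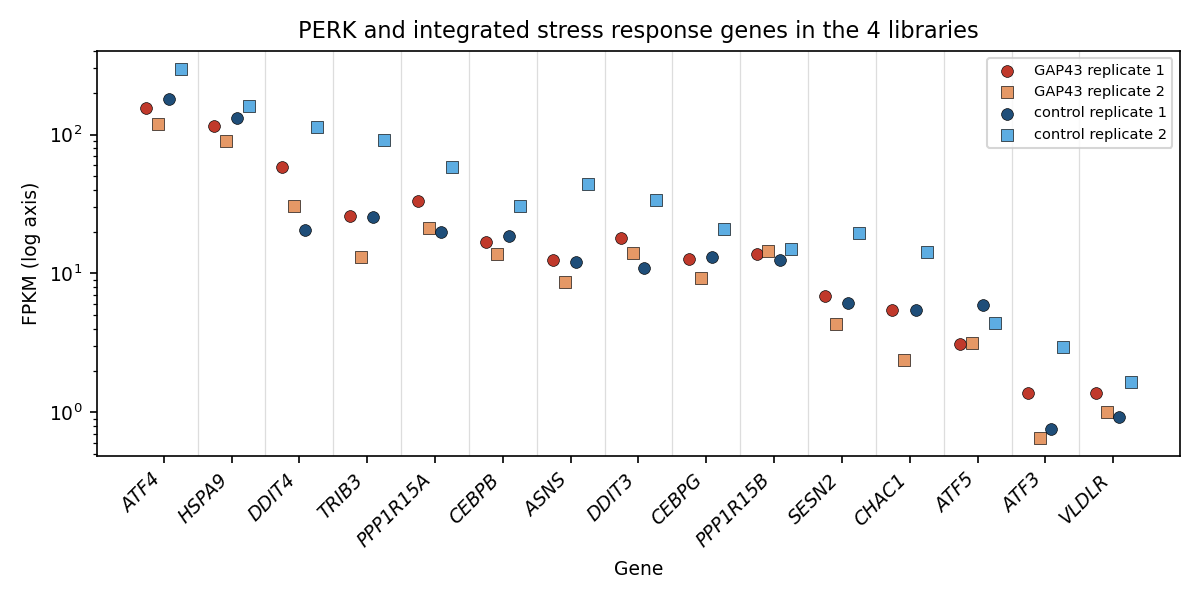
FPKM of the 15 tested genes of PERK signaling and the integrated stress response on a log axis, ordered by mean, with 1 point for each library. Control replicate 2 (light blue squares) is highest for 14 of the 15 genes, with ATF5 the exception.

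Between GAP43 and control cells, the stress response list had a median log2 fold change of -0.56, with 14 genes below 0 (55.5% of all genes), 0 past an adjusted p and 1 lower at an unadjusted p by limma (2.84% of all genes). Without control replicate 2 the median was -0.18, with 9 of 15 genes below 0, beside 7260 of 13507 over all genes, and without GAP43 replicate 2 it was -0.37. The 1 gene was ATF5, a transcription factor related to ATF4, with 3.13 and 3.16 FPKM in the GAP43 libraries and 5.90 and 4.41 FPKM in the control libraries (log2 fold change -0.56, limma unadjusted p = 0.0223, adjusted p = 0.692). ATF5 still passed with control replicate 2 left out (limma unadjusted p = 0.0311, adjusted p = 0.9996) and did not with control replicate 1 left out (limma unadjusted p = 0.231, adjusted p = 0.999). ATF4 and CHAC1, an enzyme that degrades glutathione, followed by p with log2 fold changes of -0.76 and -1.09 (limma adjusted p = 0.692 for both), or -0.40 and -0.47 without control replicate 2. CHAC1 was at -0.62 without GAP43 replicate 2.

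Upstream, of 12 tested genes of the sensors and their processing, 0 passed an unadjusted p by limma. Of them 11 were below 0, beside 55.5% of all genes. Without control replicate 2, 7 were below 0, beside 7260 of 13507 over all genes. The median was -0.15, or -0.05 without control replicate 2 and -0.09 without GAP43 replicate 2. ERN1 had 2.12 and 2.54 FPKM in the GAP43 libraries and 1.93 and 4.05 FPKM in the control libraries. ATF6 had 5.04 and 5.14 FPKM in the GAP43 libraries and 5.31 and 6.97 FPKM in the control libraries, and EIF2AK3 2.52 and 3.02 FPKM in the GAP43 libraries and 2.62 and 3.11 FPKM in the control libraries. These 3 were named as the sensors themselves, and control replicate 2 was highest for each. RTCB, the ligase that joins the exons of XBP1 after IRE1 has cut it, had the smallest p of this list, with 41.2 and 27.7 FPKM in the GAP43 libraries and 42.3 and 50.3 FPKM in the control libraries (log2 fold change -0.44, limma adjusted p = 0.692). CREB3L2 and CREB3, transcription factors anchored in the ER membrane, came next at -0.28 each. Without GAP43 replicate 2, RTCB was at -0.16 and CREB3 at -0.038, and without control replicate 2 CREB3L2 was at -0.12.

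Across 5 further lists of ER genes, 3 of 96 tested genes passed an unadjusted p by limma, all 3 lower, beside 2.84% lower over all genes, and 0 passed an adjusted p. The median over the 96 genes was -0.13, or -0.07 without GAP43 replicate 2, which was lowest for 62 of them. Partners of HSPA5 and other chaperones (16 genes) had a median log2 fold change of -0.13 and 0 genes past an unadjusted p. PPIB, the cyclophilin of the ER, had the smallest p among them, with 37.0 and 31.6 FPKM in the GAP43 libraries and 45.4 and 47.6 FPKM in the control libraries (limma adjusted p = 0.692). SDF2L1 and DNAJC10, a stress-induced chaperone partner and a disulfide reductase, had -0.45 and -0.42, or -0.30 and -0.20 without GAP43 replicate 2. Thiol oxidoreductases (17 genes tested) had a median of -0.20, or -0.08 without GAP43 replicate 2, which was lowest for 12 of them, and 0 past an unadjusted p. Among them SELENOF, a selenoprotein that binds UGGT1, was at -0.61, TMX4, a membrane-bound thioredoxin-like protein, at -0.51 and TXNDC5, a disulfide isomerase, at -0.41. Without GAP43 replicate 2, SELENOF was at -0.34 and TMX4 at -0.13. ER-associated degradation genes (26 tested), the pathway of HERPUD1, had a median of -0.06 and 0 past an unadjusted p, with the ubiquitin-conjugating enzyme UBE2J1 at -0.28 and the selenoprotein SELENOK at -0.30. Without GAP43 replicate 2 the median was 0.01, UBE2J1 was at -0.048 and SELENOK at 0.019, and without control replicate 2 they were at -0.01, -0.10 and -0.13.

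The glycoprotein folding cycle, in which calnexin and calreticulin work, had a median of -0.13 over 17 tested genes, or -0.09 without GAP43 replicate 2. Beside 2.84% of all genes, 1 gene of this list was lower at an unadjusted p. This was OST4, a small subunit of the oligosaccharyltransferase, with 23.0 and 26.1 FPKM in the GAP43 libraries and 33.8 and 35.1 FPKM in the control libraries (log2 fold change -0.48, limma unadjusted p = 0.0372, adjusted p = 0.692). DAD1 and RPN1, other subunits of that enzyme, were at -0.48 and -0.25, or -0.14 and -0.15 without GAP43 replicate 2. ER translocation genes, which bring new chains into the ER, had the lowest median of these lists at -0.30 over 20 tested genes. Of them, 2 were lower at an unadjusted p, beside 2.84% of all genes. GAP43 replicate 2 was lowest for 18 of the 20, and without it the median was -0.14, or -0.20 without control replicate 2. SRPRB, a subunit of the receptor for the signal recognition particle, had 12.2 and 9.63 FPKM in the GAP43 libraries and 14.7 and 16.9 FPKM in the control libraries (limma unadjusted p = 0.0386). SSR4, a subunit of the translocon-associated complex, had 37.4 and 23.4 FPKM in the GAP43 libraries and 48.7 and 46.6 FPKM in the control libraries (limma unadjusted p = 0.0399). SEC11C, a catalytic subunit of signal peptidase, was at -0.43, or -0.28 without GAP43 replicate 2. OST4, SRPRB and SSR4 no longer passed with control replicate 1 left out (limma unadjusted p = 0.203, 0.0989 and 0.147, adjusted p = 0.999 for each) or with control replicate 2 left out (limma unadjusted p = 0.249, 0.252 and 0.113, adjusted p = 0.9996 for each). SRPRB and SSR4 did not pass with GAP43 replicate 2 left out either (limma unadjusted p = 0.0901 and 0.0682, adjusted p = 0.948 for both).

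**Figure D5:**
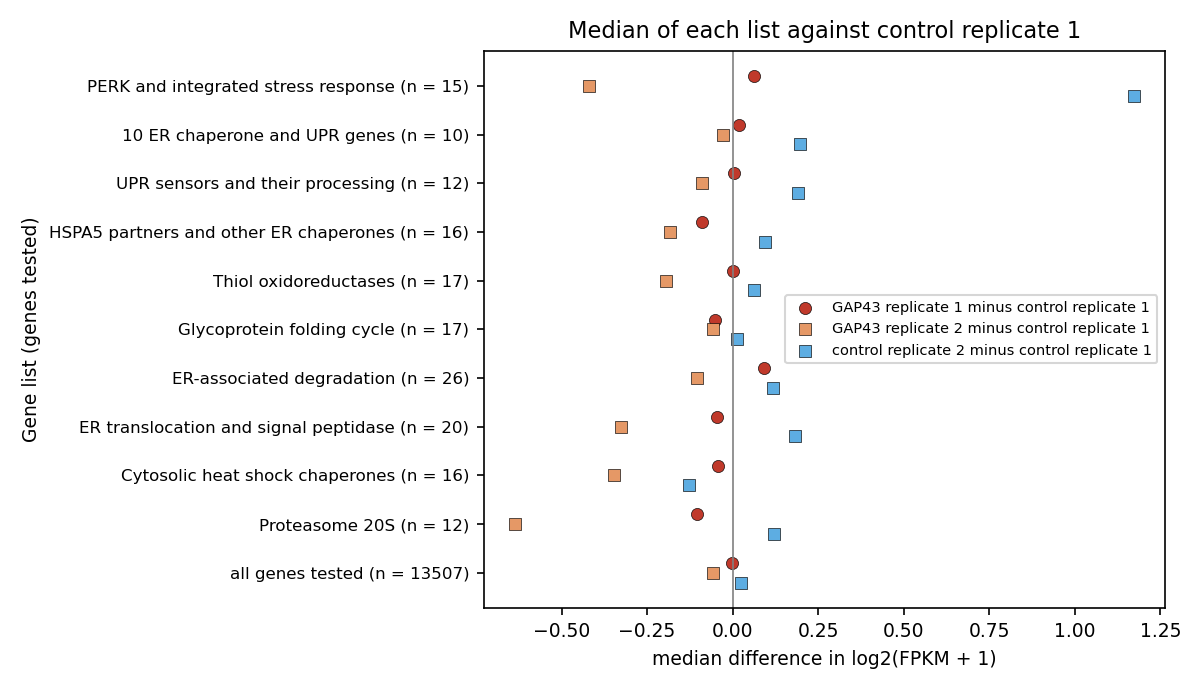
Median difference in log2(FPKM + 1) from control replicate 1 for GAP43 replicate 1, GAP43 replicate 2 and control replicate 2, for each gene list with its number of tested genes. The stress response list stands at 1.17 in control replicate 2 and -0.42 in GAP43 replicate 2, while the 10 ER chaperone and UPR genes stand at 0.20 and -0.03.

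Some reads could belong to overlapping genes or copies. The library protocol names no step that marks strand, so reads from overlapping genes of opposite strands cannot be told apart. In GENCODE release 29, PDIA6 shares 1033 of its 4101 exonic bases with ATP6V1C2 on the other strand, which had 0.195 to 0.496 FPKM. DNAJB9, the lowest of the 10, shares 99 bases with PNPLA8 and 183 bases with THAP5 out of 2837, and these had levels like its own, at 3.52 and 2.56 FPKM for PNPLA8 in the GAP43 libraries and 1.83 and 4.25 FPKM in the control libraries. The pseudogenes of these genes that the table lists were PDIA3P1, PDIA3P2, HSP90B2P, XBP1P1 and HSPA5P1, each at 2.29 FPKM or less in every library.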

How the data were processed

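The authors sequenced poly(A) RNA of the 4 SW620 libraries with paired ends after random priming and deposited FPKM values per gene. The build hg19, Cuffdiff, Cufflinks 1.1 and TopHat2 2.0.13 appear in the submitters' processing notes, with no role for each. No source used here names the annotation or the strand setting. Gene starts matched GENCODE release 29 for 96.5% of 33057 shared IDs and for all 10 genes, so coordinates are GRCh38. Multiplying the deposited FPKM by gene length and by a depth factor for each library, which takes its smallest nonzero product as 1 fragment, gave whole fragments, to a tolerance of 0.01, for 100% of nonzero values.

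Genes averaging 1 FPKM or more were compared as log2(FPKM + 1) with limma 3.58.1 (trended prior, prior degrees of freedom 4.22) in R 4.3.3, two-sided, adjusted over all genes, a scale that understates changes of low genes. Intervals are 95%. The test was tried on simulated data. Python 3.11.15, pandas 2.3.3, scipy 1.17.1 and matplotlib 3.10.9 were used.

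The genes and lists were chosen with earlier results of these data known. Named are the 10 genes, GAP43, up to 3 genes of smallest p per list, and genes said to be picked otherwise. A gene that this rule names is not reported here. Of list genes, COL1A2 and JCHAIN were not matched, and 26 gene names stored as dates were matched by ID where listed. Alternatives covered the pseudocount, filter, scaling, prior, replicate block, protein-coding genes alone, each library left out and voom on recovered fragments.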

Additional observations from a re-analysis of the deposited data

How the results depend on the processing

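No gene of the 10 passed an unadjusted or adjusted p under 0.05 by limma or voom under any alternative run. Over the 4 fits that each left out 1 library, the median log2 fold change of the 10 genes ran from -0.27 to 0.035 and the number below 0 from 3 to 9. The number with all GAP43 libraries below all controls ran from 3 to 8 and above from 0 to 3. Over all 13507 genes tested these numbers ran from 4456 to 6485 and from 3765 to 4859, with 1 library of a group against 2 of the other. In these fits XBP1 ran from -0.78 to 0.057, HERPUD1 from -0.71 to 0.044, HSPA5 from -0.32 to 0.027, HSP90B1 from -0.022 to 0.27, PDIA4 from -0.13 to 0.14, DNAJB9 from -0.12 to 0.17, CALR from -0.29 to -0.13, CANX from -0.28 to -0.08, PDIA6 from -0.29 to -0.16 and PDIA3 from -0.039 to 0.00094, the spread of a lone library being taken from the other group. Over all genes they gave 270 to 1565 higher and 77 to 2513 lower at an unadjusted p, and 0 to 15 at an adjusted p. After division of FPKM by its sum, 1 of the 10 genes had both GAP43 libraries below both controls and 1 above, beside 2166 and 3419 of 13507 genes. This scaling gave 213 lower genes, PDIA3 at 0.10 and a median of -0.045 for the 10 genes. Median-ratio scaling gave -0.11 with PDIA3 at 0.034, and voom -0.11 with PDIA3 at 0.035. Without a filter 1070 genes were higher and 676 lower, a filter at 5 FPKM left 155 higher and excluded DNAJB9, and protein-coding genes alone gave 223 higher. The cause of these shifts was not tested, beyond the other number of genes tested. Same-numbered replicates did not deviate together (correlation across genes -0.16), and a replicate block gave 655 higher genes and 152 at an adjusted p. With the numbers crossed, chosen after seeing the data, 668 were higher, 737 lower and 0 passed an adjusted p. Values rest on 2 libraries a group, so that for XBP1 a change between 0.469-fold and 1.29-fold was within the interval.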

Other observations

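The 20S proteasome, which degrades proteins exported from the ER among many others, had a median log2 fold change of -0.42 over 12 tested genes, with 11 having both GAP43 libraries below both controls (24.1% of all genes) and 0 past an unadjusted or adjusted p by limma. GAP43 replicate 2 was lowest for 11 of the 12, and without it the median was -0.15. PSMB2, PSMA5 and PSMB3, subunits of its rings, had the smallest p, and PSMB2 had 38.6 and 23.1 FPKM in the GAP43 libraries and 43.8 and 42.2 FPKM in the control libraries (log2 fold change -0.51, or -0.15 without GAP43 replicate 2). Cytosolic heat shock chaperones had a median of -0.18 over 16 genes, -0.03 without GAP43 replicate 2, with 0 past an unadjusted p. HSPA1B, a stress-inducible HSP70, had 18.0 and 18.6 FPKM in the GAP43 libraries and 15.7 and 10.6 FPKM in the control libraries, and HSPA1A 16.1 and 16.1 FPKM in the GAP43 libraries and 15.4 and 9.30 FPKM in the control libraries. These are near-identical copies whose reads can be shared. Control replicate 2, in which the stress response genes were highest, was lowest for both, and AHSA1, an activator of HSP90, was at -0.27, or -0.15 without GAP43 replicate 2.

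Control replicate 2 also had the highest CDH1, the epithelial cadherin, with 11.8 and 16.2 FPKM in the GAP43 libraries and 13.2 and 40.7 FPKM in the control libraries. On the deposited values, 6 of 8 tested markers of colorectal epithelium were highest there, beside 36.9% of protein-coding genes tested. CDH17, an intestinal cadherin, had 2.37 and 3.63 FPKM in the GAP43 libraries and 3.52 and 6.75 FPKM in the control libraries, whereas CDX2, an intestinal transcription factor, was lowest in control replicate 2, with 7.06 and 10.3 FPKM in the GAP43 libraries and 7.53 and 5.37 FPKM in the control libraries.

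The 5 protein-coding genes whose centred log2 values over the 4 libraries lay nearest to the mean of the 10 genes were MKNK2, TMEM187, PTCD3, GMEB2 and AIG1, at Euclidean distances of 0.0080 to 0.031. MKNK2 had 36.0 and 35.9 FPKM in the GAP43 libraries and 35.7 and 44.0 FPKM in the control libraries.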
